A study of Triticum aestivum with 6 samples.

Results

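The short arms of wheat chromosomes 5D, 5B and 5A (5DS, 5BS and 5AS) were described in filling grain through 3431 of the 102602 gene identifiers in the count table. They were chosen by name alone: 1187 identifiers began with the prefix of 5DS, 1191 with that of 5BS and 1053 with that of 5AS. RNA came from inferior grains, the later and usually less filled grains of a spike, of field-grown Triticum aestivum cultivar Xinong 538. The titles gave 2 groups of 3 libraries, SPD and CK, neither of which the labels spell out. All 6 libraries carried the same treatment text, exogenous spermidine, and the same stage entry, which named days 8 and 16 after anthesis. The labels say neither whether CK grains were left untreated nor whether replicates were separate plants, so p-values cover only the variation among these 6 libraries, part of which may be technical.

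Bread wheat carries 3 related genomes, A, B and D, and most of its genes exist as a copy on each of 3 matching, or homoeologous, chromosome arms. 5DS is known as the arm of the grain hardness locus, which holds the puroindoline genes. Puroindolines are small lipid-binding proteins of the endosperm that keep starch granules loosely attached to the protein matrix, and grains without working copies are hard. The puroindoline genes PINA and PINB stood in the table under symbols without an arm prefix, so they were not members of 5DS. The members carry identifiers only, which the files do not pair with gene names and which the reference table did not hold, so no function is given for any of them. Reads of near-identical copies on the 3 arms may have been assigned to any of these copies, so levels of single identifiers, and the division between arms, carry that uncertainty.

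Total counts ran from 10561224 to 13088727 per library. SPD replicate 3 was unlike the rest also on these arms: over the 1818 members that passed the filter on low counts it scored 25.7 on the main principal component (33.8% of the variance), and the other 5 libraries scored between -7.50 and -3.04. Genes known from the endosperm, a list of 7 chosen with earlier results known (PINA, PINB, GLU-D1-2B, AVNLA, WAXY, AGP-L and AGP-S), were counted in every library. Their summed level was 14003 to 18046 CPM (counts scaled to a library total of 1000000) in SPD and 15030.0 to 15759 CPM in CK. GLU-D1-2B was low, at 2.53 to 5.68 CPM, against 918 to 6276 CPM for the other genes of the list. A list of 6 genes of green tissue (PORA, PSBO, PSBP, PSBR, PETC and WHAB1.6) summed to 438.4 to 876.5 CPM in SPD and 429.2 to 552.2 CPM in CK. Of these, WHAB1.6 had only 0.640 to 2.75 CPM. SPD replicate 3 held the highest sum of both lists, for the endosperm list with AVNLA at 6276 CPM there and at 3117 to 4096 CPM in the other libraries. Without AVNLA, the sum was 11769 CPM in SPD replicate 3, against 10872 and 12062 CPM in the other SPD libraries and 11541 to 11967 CPM in CK, and AGP-L was lowest in SPD replicate 3, at 918 CPM. The part of either list in the results below was not tested.

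The 3 arms were small and held like numbers of prefixed identifiers, PINA and PINB not among them. By these identifiers, 5BS took the largest share of the counts in every library and 5DS the smallest. 5DS held 1.04%, 1.05% and 0.962% of all counts in SPD replicates 1 to 3 and 1.02%, 1.01% and 1.02% in CK replicates 1 to 3. 5BS held 1.25%, 1.28% and 1.27% in SPD and 1.28%, 1.24% and 1.27% in CK. 5AS held 1.18%, 1.12% and 1.06% in SPD and 1.09%, 1.08% and 1.13% in CK. The ranges of the 3 arms did not overlap, although the lowest 5AS value, in SPD replicate 3, lay close to the highest 5DS value. Within a library, 5DS minus 5BS was -0.247 ± 0.0350 percentage points (mean ± SD over 6 libraries) and 5DS minus 5AS was -0.0909 ± 0.0296. 5BS minus 5AS was 0.156 ± 0.0498 percentage points. Each of the 3 differences had the same sign in 6 of 6 libraries, with an adjusted p of 0.031 in a two-sided exact sign-flip permutation test over libraries, the smallest p that 6 libraries can give. By share of counts, the arms ranked 35th (5BS), 37th (5AS) and 39th (5DS) among the 41 chromosome and arm prefixes of the table, and by number of identifiers 38th, 40th and 39th.

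**Figure D1:**
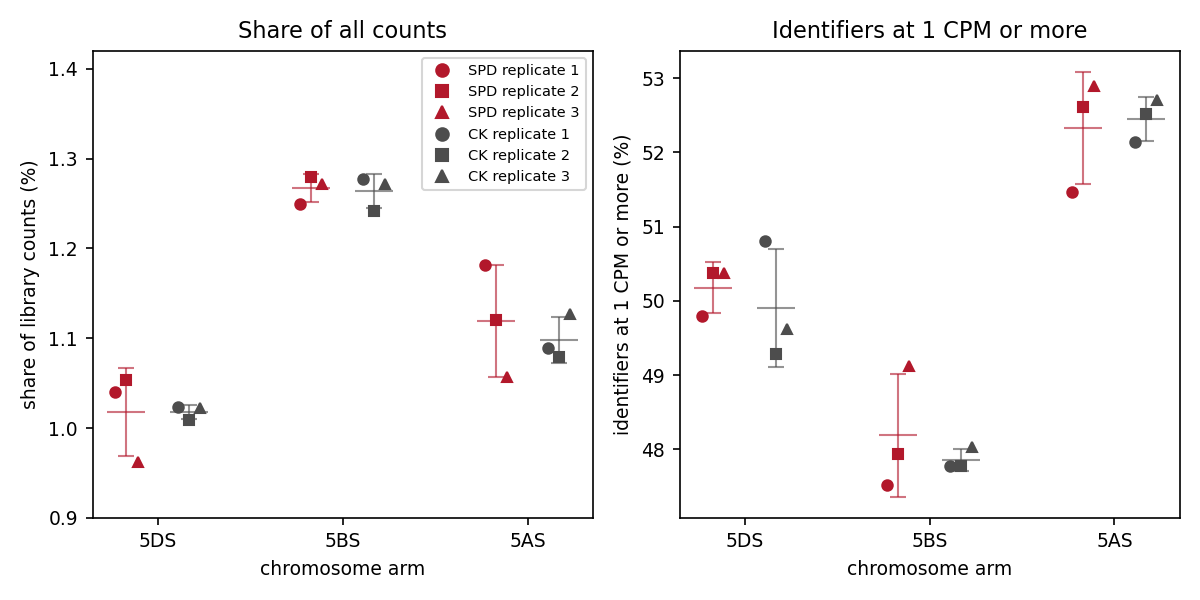
Share of library counts (left, %) and share of the arm's identifiers at 1 CPM or more (right, %) for 5DS, 5BS and 5AS. Points are libraries, SPD left of CK within an arm, with bars for the mean and SD of 3 libraries, and the axes do not start at 0. 5BS sits highest on the left and lowest on the right. PINA and PINB are not included.

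Detection ranked the arms in another order. An identifier was called detected in a library at 1 CPM or more. 5AS had the largest detected share, 51.5%, 52.6% and 52.9% in SPD and 52.1%, 52.5% and 52.7% in CK. 5DS had 49.8%, 50.4% and 50.4% in SPD and 50.8%, 49.3% and 49.6% in CK. 5BS had the smallest, 47.5%, 47.9% and 49.1% in SPD and 47.8%, 47.8% and 48.0% in CK. The ranges of the 3 arms did not overlap. 5DS minus 5BS was 2.02 ± 0.673 percentage points, 5DS minus 5AS -2.35 ± 0.753 and 5BS minus 5AS -4.36 ± 0.413 (adjusted p of 0.031 each, exact sign-flip permutation test, same sign in 6 of 6 libraries). When an identifier with a single count was taken as detected, the difference of 5DS from 5AS was -0.444 percentage points and no longer passed the test (adjusted p = 0.188, exact sign-flip permutation test). 5DS minus 5BS was then 1.34 percentage points and 5BS minus 5AS -1.78 (adjusted p = 0.0469 for both, same exact test).

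Across all libraries, 517 identifiers of 5DS, 482 of 5BS and 465 of 5AS reached 1 CPM in every library, or 43.6%, 40.5% and 44.2% of the arm, against 38.6% over the whole table. No library held 1 CPM of 505 identifiers of 5DS, 511 of 5BS and 428 of 5AS. These were 42.5%, 42.9% and 40.6% of the arm, against 46.4% of the whole table. Shares without a single count were near equal, at 27.6% for 5DS, 27.9% for 5BS and 27.3% for 5AS, against 29.0% of identifiers outside the 3 arms. Between these ends, 165 identifiers of 5DS, 198 of 5BS and 160 of 5AS reached 1 CPM in some libraries and not in others. The typical detected identifier had a like level on each arm, with a median over those at 1 CPM or more on average of 7.48 CPM on 5DS, 7.44 on 5BS and 7.86 on 5AS.

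Over the prefixed identifiers, without PINA and PINB, 5DS was the low arm in mean CPM, and 5BS and 5AS could not be told apart. Mean CPM over all identifiers of an arm was 8.76, 8.87 and 8.10 on 5DS in SPD and 8.61, 8.50 and 8.61 in CK. It was 10.5, 10.7 and 10.7 on 5BS in SPD and 10.7, 10.4 and 10.7 in CK. On 5AS it was 11.2, 10.6 and 10.04 in SPD and 10.3, 10.2 and 10.7 in CK. 5DS minus 5BS was -2.05 ± 0.295 CPM and 5DS minus 5AS -1.95 ± 0.284 (adjusted p = 0.0469 for each, exact sign-flip permutation test, 6 of 6 libraries). 5BS minus 5AS was 0.0928 ± 0.465 CPM, positive in 4 of 6 libraries (adjusted p = 0.656, same exact test). Without SPD replicate 3 that difference was -0.0170 CPM. These means are per identifier and not per base, since lengths of the members were not in the files.

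Among prefixed identifiers, without PINA and PINB, the counts of 5BS were the most concentrated. Its 10 most abundant identifiers held 34.5%, 36.8% and 35.4% of the arm's counts in SPD and 36.5%, 35.8% and 36.3% in CK. Those of 5DS held 25.6%, 27.2% and 23.7% of its counts in SPD and 24.7%, 25.4% and 25.6% in CK, and those of 5AS 29.3%, 28.2% and 26.1% in SPD and 27.0%, 28.4% and 28.0% in CK. The range of 5BS lay above both others, and 5DS overlapped with 5AS. 5DS minus 5BS was -10.5 ± 1.14 percentage points, 5DS minus 5AS -2.46 ± 0.889 and 5BS minus 5AS 8.06 ± 1.58 (adjusted p of 0.031 each, exact sign-flip permutation test, 6 of 6 libraries). Counted from the most abundant down, 60 identifiers made up 50% of the mean counts of 5DS, 26 those of 5BS and 45 those of 5AS. For 90%, it took 319 on 5DS, 269 on 5BS and 276 on 5AS.

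**Figure D2:**
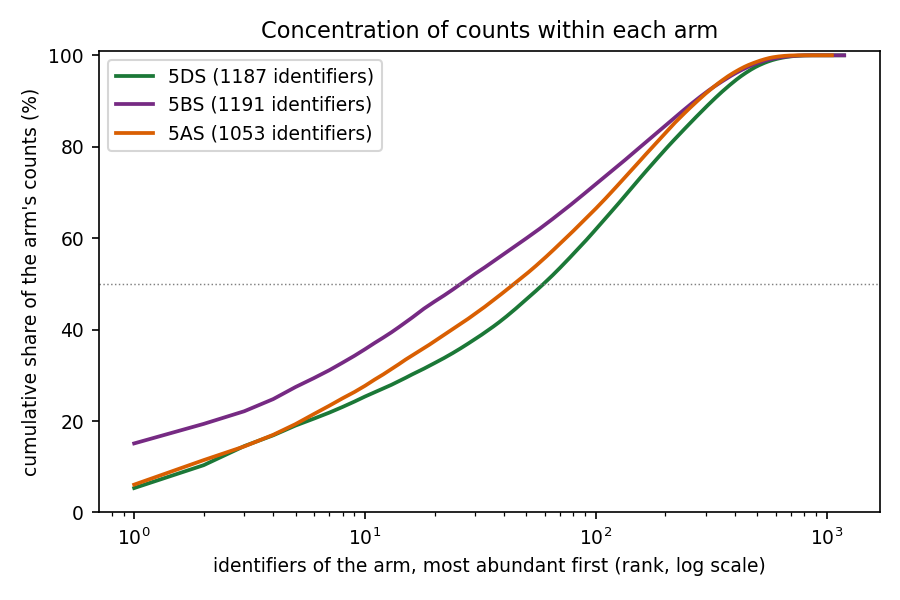
Cumulative share of an arm's counts (%) against the rank of its identifiers by mean CPM over 6 libraries (log scale). The 5BS curve starts at 15.1% with a single identifier, against 5.33% for 5DS and 6.08% for 5AS, and crosses the dotted line at 50% after 26 identifiers.

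The differences of 5BS from both other arms shrank without its most abundant identifier. Traes_5BS_FDE980DE1 had 1678, 1924 and 1948 CPM in SPD replicates 1 to 3 and 2023, 1896 and 1993 CPM in CK replicates 1 to 3, or 15.1% of the arm's counts. Its SPD and CK values overlapped, and SPD replicate 1 was the lowest of the 6. It averaged 1849.7 ± 149 CPM in SPD and 1971 ± 66.1 CPM in CK (SD, n = 3 each), a fitted log2 fold change of -0.08 (95% interval -0.30 to 0.13). It was -0.14 when SPD replicate 3 was left out and -0.0036 when SPD replicate 1 was. With the most abundant identifier of each arm left out, the share of 5BS exceeded that of 5AS by 0.0328 percentage points and the difference no longer passed the test (adjusted p = 0.0938, exact sign-flip permutation test). 5DS minus 5BS was then -0.110 percentage points, and -0.0536 without the 10 most abundant of each arm, where 5DS minus 5AS was -0.0418 (adjusted p = 0.0469 for each, same exact test). With the 10 most abundant of each arm left out, 5BS minus 5AS in mean CPM per identifier was -0.798 (adjusted p = 0.031, exact sign-flip permutation test), the other direction from that with all identifiers, while 5DS minus 5BS was -0.432 and 5DS minus 5AS -1.23 (adjusted p of 0.031 for both, same exact test).

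The next identifiers of 5BS were several times lower. Traes_5BS_8ECE54AC4 had 536.3, 571.1 and 504.3 CPM in SPD and 555.1, 581.8 and 493.2 CPM in CK, a narrow range in which the groups overlapped. Traes_5BS_D51370B32 was less even, with 290.9, 379.0 and 441.5 CPM in SPD and 338.7, 276.4 and 378.1 CPM in CK. Its highest value belonged to SPD replicate 3. That library was instead the lowest for Traes_5BS_43474D974, with 342.1, 374.5 and 239.9 CPM in SPD and 346.4, 337.7 and 370.3 CPM in CK. It was the lowest too for Traes_5BS_F56E72D93, with 408.8, 358.0 and 280.6 CPM in SPD and 289.4, 329.0 and 341.7 CPM in CK. For all 3 of these the SPD and CK values overlapped.

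On 5DS no prefixed identifier stood out in this way. Traes_5DS_F9C6618A5, the highest on average, had 493.0, 720.9 and 360.2 CPM in SPD and 538.2, 501.5 and 640.3 CPM in CK. It varied more than the other leading identifiers of the arm, with SPD replicate 2 highest and SPD replicate 3 lowest, and the SPD range enclosed that of CK. Its fitted log2 fold change was -0.09 (95% interval -0.54 to 0.36), and 0.11 without SPD replicate 3. Traes_5DS_6429161E7 had 606.0, 546.2 and 399.4 CPM in SPD and 479.1, 505.9 and 523.6 CPM in CK, and again the SPD range enclosed that of CK. Traes_5DS_581B4DB50 was steadier, with 407.2, 444.2 and 425.3 CPM in SPD and 422.4, 453.3 and 396.6 CPM in CK, a coefficient of variation over the 6 libraries of 5.05%. Traes_5DS_1BD5492E6 averaged 250.1 ± 27.7 CPM in SPD and 229.7 ± 10.7 CPM in CK, and Traes_5DS_DECAA37DD 225.1 ± 28.7 CPM in SPD and 210.3 ± 5.01 CPM in CK (SD, n = 3 each). Both overlapped between the groups.

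5AS was led by a pair of identifiers of like level. Traes_5AS_116663495 had 834.7, 692.6 and 586.4 CPM in SPD and 597.9, 670.9 and 663.5 CPM in CK. Traes_5AS_4C84934FE had 678.8, 609.1 and 495.8 CPM in SPD and 565.1, 595.6 and 623.9 CPM in CK. In both, SPD replicate 1 was the highest library and SPD replicate 3 the lowest, and the SPD range enclosed that of CK. The fitted log2 fold change of Traes_5AS_116663495 was 0.13 (95% interval -0.14 to 0.41), with 0.0100 when SPD replicate 1 was left out and 0.24 when SPD replicate 3 was. Traes_5AS_282747CEF had 379.5, 351.2 and 225.9 CPM in SPD and 357.6, 344.2 and 337.1 CPM in CK, with SPD replicate 3 below the other 5. Traes_5AS_5C5BA8A57 averaged 287.8 ± 19.2 CPM in SPD and 273.5 ± 4.80 CPM in CK, and Traes_5AS_9689E345A 272.6 ± 23.4 CPM in SPD and 248.0 ± 19.7 CPM in CK (SD, n = 3 each), both with overlapping groups.

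**Figure D3:**
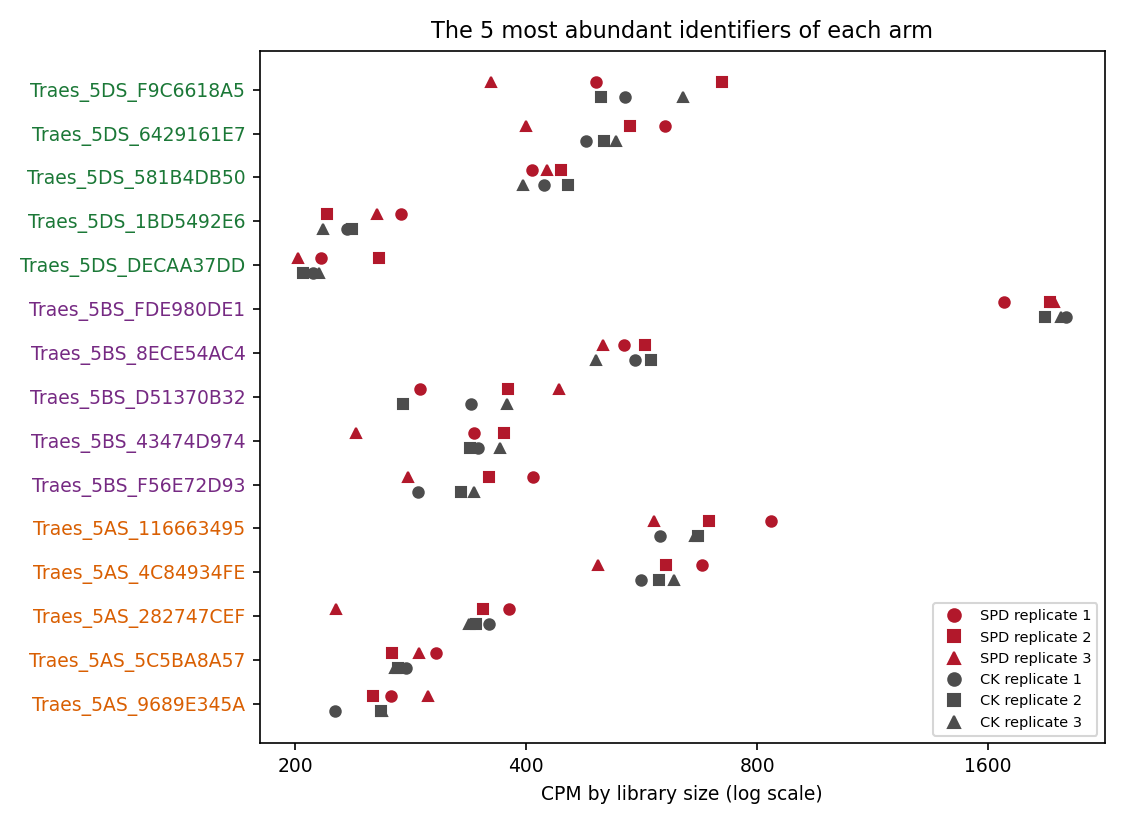
CPM by library size (log scale) of the 5 most abundant identifiers of 5DS, 5BS and 5AS, with SPD points above CK points in each row. Traes_5BS_FDE980DE1 lies apart at 1678 to 2023 CPM, and the SPD and CK points overlap in all 15 rows.

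The puroindolines, set beside their arm, weighed as much as a large part of it. PINA had 2761, 3166 and 3517 CPM in SPD and 3161, 3022 and 3063 CPM in CK. PINB had 3276, 3650.1 and 3750.3 CPM in SPD and 3769.7, 3664 and 3415 CPM in CK. Together they came to 66.1% ± 8.84 of the summed level of all 5DS identifiers in SPD and 65.8% ± 2.22 in CK (SD, n = 3 each). Each gene had more counts than any member of the 3 arms. With both genes counted to 5DS, that arm held more counts than 5BS by 0.423 percentage points and more than 5AS by 0.579 (adjusted p of 0.031 for each, exact sign-flip permutation test), the other direction from that of the prefixed identifiers alone. Only share of counts was computed with both genes added. Mean CPM per identifier, concentration and the division against other triplets therefore hold for prefixed identifiers alone. Other genes with a symbol may belong to any of the 3 arms and were not assigned. GSP-1, another gene of the locus, was looked for by that symbol and not found under it.

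The division of counts between D, B and A on the group 5 short arms was set against the 11 other triplets of arms that the identifiers name. With PINA and PINB left out, the D arm was the smaller part here and the B arm the larger. The division with both genes counted to 5DS was not computed. In share of all counts 5DS then exceeded 5BS by 0.423 percentage points and 5AS by 0.579. With both genes 5DS would thus be the largest of the 3 parts, so the order below rests on leaving them out. 5DS held 29.97%, 30.5% and 29.2% of the counts of the 3 arms in SPD and 30.2%, 30.3% and 29.9% in CK, against 36.1% to 36.8% for the D arms of the other triplets pooled. 5BS held 36.0%, 37.1% and 38.7% in SPD and 37.7%, 37.3% and 37.2% in CK, against 29.3% to 29.8% for the other B arms. 5AS held 34.0%, 32.4% and 32.1% in SPD and 32.1%, 32.4% and 33.0% in CK, against 33.9% to 34.3% for the other A arms. The difference was -6.22 ± 0.665 percentage points for 5DS, 7.69 ± 0.965 for 5BS and -1.47 ± 0.626 for 5AS (mean ± SD over 6 libraries). Each had the same sign in 6 of 6 libraries, with an adjusted p of 0.031 in the exact sign-flip permutation test. The p-values of this comparison cover variation among libraries and not the spread among triplets. Over the 11 other triplets the D part ran from 30.1% (group 2 short arms) to 65.5% (group 1 short arms). The B part ran from 4.97% (group 1 short arms) to 36.5% (group 5 long arms). The pooled triplets include the group 1 short arms, where the D arm held 65.5% of the counts and the B arm 4.97%. Without the triplets of groups 1, 4 and 7, an alternative added after the data were seen, the difference was -3.58 percentage points for 5DS and 4.30 for 5BS (adjusted p = 0.0469 for both, same exact test). Against the short arm triplets alone it was -10.2 for 5DS and 11.8 for 5BS (adjusted p of 0.031 for both, same exact test). Without the 10 most abundant identifiers of 5DS, 5BS and 5AS, the other triplets left whole, the difference of 5BS was 4.63 (adjusted p = 0.0469, same exact test). The difference of 5AS was -0.403 percentage points with those same identifiers left out and -0.720 without the triplets of groups 1, 4 and 7. It passed the test in neither (adjusted p = 0.0938 for both, same exact test). By number of identifiers at 1 CPM or more in place of counts, the difference of 5DS was 0.0892 percentage points and did not pass (adjusted p = 0.531, same exact test), and that of 5BS was 1.27 (adjusted p = 0.0469, same exact test).

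Among the 12 triplets, by prefixed identifiers alone, the B part of 37.3% ± 0.866 on the group 5 short arms was the highest. That of the group 5 long arms was 36.5% ± 0.779, a difference no larger than the SD of the short arm value. The D part of 30.0% ± 0.446 was the lowest, and that of the group 2 short arms, 30.1% ± 0.212, did not differ from it beyond its spread (SD over 6 libraries). 5DS held 34.6% of the triplet's identifiers, 5BS 34.7% and 5AS 30.7%, so 5DS and 5BS differed in counts and hardly in identifiers.

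**Figure D4:**
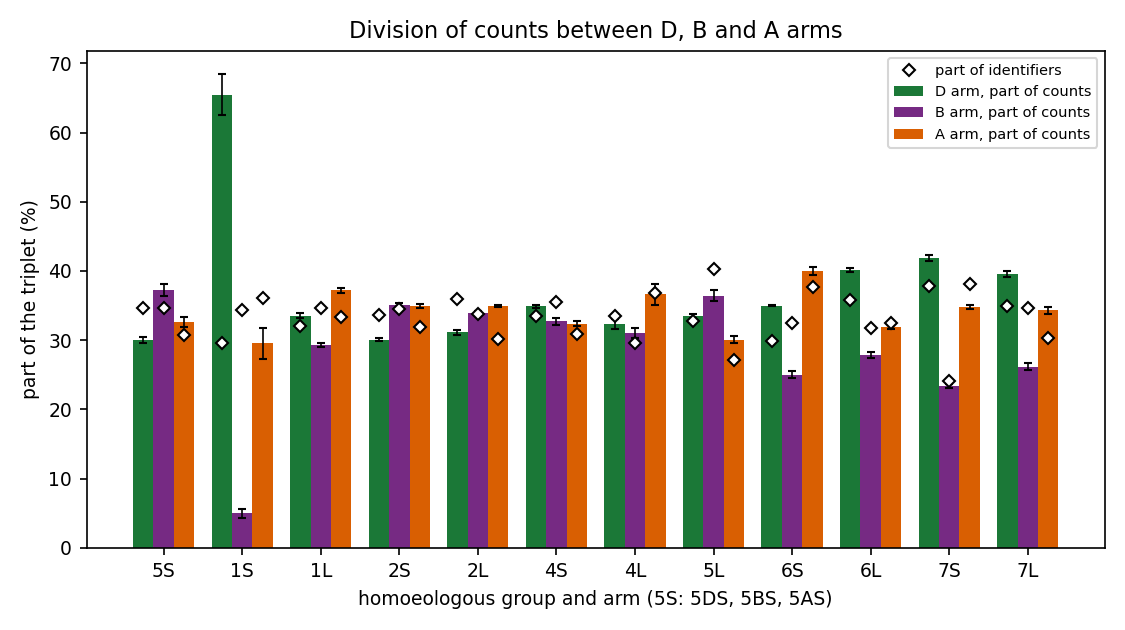
Part of a triplet's counts on its D, B and A arm (bars from 0, mean and SD over 6 libraries, %) and part of its identifiers (diamonds, %), for the group 5 short arms on the left and 11 other triplets. On the group 5 short arms the D bar lies below its diamond and the B bar above it. PINA and PINB are not included.

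Between SPD and CK the share of counts of none of the 3 arms differed beyond the spread of the libraries. 5DS held 1.018% ± 0.0493 in SPD and 1.018% ± 0.00781 in CK, 5BS 1.267% ± 0.0153 in SPD and 1.264% ± 0.0186 in CK, and 5AS 1.119% ± 0.0621 in SPD and 1.098% ± 0.0253 in CK (SD, n = 3 each). The adjusted p was 1 for each in a two-sided exact permutation test, in which 3 against 3 libraries cannot go below 0.1. The detected share of identifiers was 50.2% ± 0.341 in SPD and 49.9% ± 0.796 in CK on 5DS. On 5BS it was 48.2% ± 0.827 in SPD and 47.9% ± 0.145 in CK, and on 5AS 52.3% ± 0.754 in SPD and 52.5% ± 0.290 in CK (adjusted p = 0.9 for each, same exact test). The sign of the SPD minus CK difference turned with the library left out for all 3 arms, in share of counts and in detected share.

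Of the members, 631 on 5DS, 607 on 5BS and 580 on 5AS passed the filter on low counts, 53.0% of all, and none was called higher or lower in SPD. The quasi-likelihood test of edgeR, adjusted over the 50136 identifiers tested in the whole table, called 0% of those too, and the smallest adjusted p among members was 0.998. DESeq2 and limma-voom called 0 members, where DESeq2 called 0.00598% of all tested. At an unadjusted p under 0.05, 22 identifiers of 5DS, 29 of 5BS and 25 of 5AS passed in edgeR, or 3.49%, 4.78% and 4.31%, against 3.59% of all identifiers tested. By direction these were 11 higher and 11 lower on 5DS, 19 and 10 on 5BS, and 19 and 6 on 5AS, where 1.88% of all tested were higher and 1.71% lower. That is 1.74% in each direction on 5DS, 3.13% higher and 1.65% lower on 5BS, and 3.28% higher and 1.03% lower on 5AS. The 5AS split was 21 higher and 16 lower without SPD replicate 2, 25 and 15 without SPD replicate 3, and 17 and 1 without CK replicate 2. The count over the 3 arms, 76, was 150 without SPD replicate 2, 123 without SPD replicate 3, 46 without CK replicate 1 and 49 without CK replicate 2.

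Fold changes of the members centred on 0. The median log2 fold change was -0.0025 on 5DS, 0.0060 on 5BS and 0.0325 on 5AS, against 0.0034 over all identifiers tested. Fitted values were positive for 312 of 631 identifiers on 5DS, 309 of 607 on 5BS and 320 of 580 on 5AS. That is 49.4%, 50.9% and 55.2%, against 50.5% of all identifiers tested. The sign of the 5DS and 5BS medians changed with the scaling and with the library left out. The 5AS median ran from 0.0191 without CK replicate 2 to 0.0427 without CK replicate 3. SPD and CK values did not overlap for 57 identifiers of 5DS, 67 of 5BS and 53 of 5AS, or 9.03%, 11.0% and 9.14%, against 9.48% of all tested. SPD lay higher in 33, 38 and 31 of these and lower in 24, 29 and 22, where 4.51% of all tested were higher and 4.97% lower. The middle 90% of log2 fold changes ran from -0.60 to 0.71, and a member's 95% interval reached a median of 0.624 to either side of its value.

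**Figure D5:**
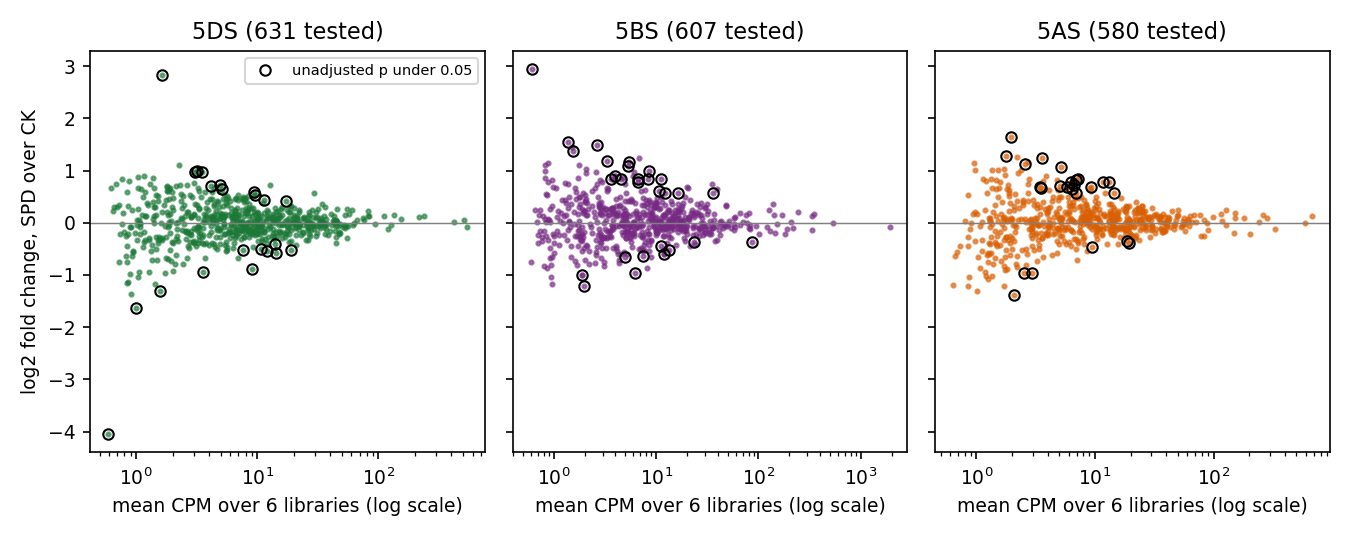
Log2 fold change of SPD over CK against mean CPM over 6 libraries (log scale) for the identifiers tested on 5DS, 5BS and 5AS. Black rings mark an unadjusted p under 0.05, of which there are 22, 29 and 25, and no point was called after adjustment.

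The members with the lowest unadjusted p on the higher side were both on 5BS and both low in level. Traes_5BS_040F795A0 had 3.35, 3.24 and 5.02 CPM in SPD and 1.36, 1.27 and 1.53 CPM in CK. Traes_5BS_1B2C9A6C9 had 6.95, 5.62 and 9.09 CPM in SPD and 3.28, 3.16 and 3.74 CPM in CK. In both, the groups did not overlap and SPD replicate 3 was the highest. Their fitted log2 fold changes were 1.48 (SE 0.38) and 1.09 (SE 0.28), each with an adjusted p of 0.998 in edgeR. With 1 library left out at a time they ran from 1.24 to 1.6 and from 0.88 to 1.24.

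On the lower side both were on 5DS. Traes_5DS_F4FF9BB2F had 0, 0 and 2 counts in SPD and 13, 12 and 16 counts in CK. Summed over libraries and scaled by their totals, SPD held 0.05 of the CK level, with an exact 95% interval of 0.00586 to 0.192 that covers counting error only. Its fitted log2 fold change, which depends on the prior count, was -4.05 (SE 1.03), with an adjusted p of 0.998 in edgeR, with -6.80 when SPD replicate 3 was left out and -3.48 when SPD replicate 2 was. Traes_5DS_CC6B453F0 had 14.1, 18.6 and 14.4 CPM in SPD and 24.3, 22.1 and 21.5 CPM in CK, a fitted log2 fold change of -0.52 (SE 0.17, adjusted p = 0.998 in edgeR) that ran from -0.66 to -0.43 without 1 library at a time. The SPD values of both lay below those of CK.

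The arms differed in how their identifiers and their sums varied over libraries. The share of counts of 5BS had a coefficient of variation over the 6 libraries of 1.21%, the lowest of the 41 prefixes, against 3.10% for 5DS and 3.96% for 5AS, which ranked 4th from the top. Among those tested averaging 10 CPM or more, the median SD of log2 CPM was 0.205 in SPD and 0.150 in CK on 5DS (236 identifiers). It was 0.232 in SPD and 0.148 in CK on 5BS (230 identifiers), and 0.206 in SPD and 0.181 in CK on 5AS (241 identifiers). Over all identifiers tested it was 0.205 in SPD and 0.150 in CK. Between SPD replicates 1 and 2 alone the median SD was 0.161 on 5DS, 0.138 on 5BS and 0.168 on 5AS, against 0.139 over all identifiers tested. In CK and between those 2 SPD libraries 5BS had the lowest median, near that over all identifiers tested, and 5AS the highest. Within SPD with replicate 3 included, 5BS had the highest. For the sums, 5BS was lowest and 5AS highest over all 6 libraries and within SPD. The SD of the share within SPD was 0.0153 percentage points on 5BS, 0.0493 on 5DS and 0.0621 on 5AS. Within CK the SD of the share was lowest on 5DS, at 0.00781 percentage points, against 0.0186 on 5BS and 0.0253 on 5AS. SPD replicate 3 held the lowest 5DS share, 0.962%.

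SPD replicate 3 was the library in which single members departed furthest. At a mean of at least 10 CPM, 10 of 230 identifiers of 5BS, 6 of 236 of 5DS and 2 of 241 of 5AS lay 2-fold or more from the mean of the other 5 libraries, or 4.35%, 2.54% and 0.830%, against 3.63% of all identifiers tested. In each of the other libraries 0 or 1 identifier per arm did. The SD of that log2 difference in SPD replicate 3 was 0.379 on 5DS, 0.587 on 5BS and 0.351 on 5AS, and 0.197 to 0.288 in the others. Among identifiers averaging 10 CPM or more, the highest coefficient of variation on 5DS, 52.0%, belonged to Traes_5DS_FA82C5E34, with 9.64, 11.6 and 25.9 CPM in SPD and 8.96, 9.21 and 10.6 CPM in CK. On 5AS it was 51.5%, for Traes_5AS_7D480E15C, with 10.3, 7.62 and 29.3 CPM in SPD and 11.4, 19.9 and 14.3 CPM in CK. SPD replicate 3 was the highest library of both.

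At limits of 0.2 and 2 CPM, members present in 5 libraries and missing from 1, or the reverse, were all on 5BS and all concerned SPD replicate 3. Under 0.2 CPM in 1 library and at least 2 CPM in 5 were 4 identifiers of 5BS and 0 of 5DS and 5AS. That is 0.336% of 5BS, against 0.136% of the whole table. Over the members of all 3 arms it is 0.117%, near the share of the whole table. Over the whole table, SPD replicate 3 was the library concerned for 132 of 140 such identifiers and for 55 of the 62 found in a single library, most of them outside the 3 arms. Traes_5BS_F63C4ECAE had 173, 183 and 0 counts in SPD and 177, 171 and 175 counts in CK. Traes_5BS_8598410AA had 129, 147 and 0 counts in SPD and 106, 99 and 133 counts in CK, and Traes_5BS_ACADC6031 had 107, 111 and 0 counts in SPD and 122, 140 and 122 counts in CK. Taking 3 counts as the most that a 0 allows, or 0.284 CPM, SPD replicate 3 was at least 50.1-fold, 34.8-fold and 34.5-fold lower than the mean of the other 5 for these. Traes_5BS_829792FF6 had 44, 53 and 2 counts in SPD and 52, 26 and 27 counts in CK. Those besides Traes_5BS_F63C4ECAE were named after their values were seen, since they are few. With 1 CPM in place of 2, a limit added after the data were seen, 1 identifier of 5DS, 12 of 5BS and 7 of 5AS were absent from a single library, so the restriction to 5BS holds at the higher level only.

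The reverse pattern was seen in the same library, for 0.168% of 5BS and 0.0583% of all members, against 0.0604% of the whole table. Traes_5BS_8FCE2A37E had 0, 0 and 45 counts in SPD and 0, 0 and 1 in CK, and Traes_5BS_2A1700040 had 1, 1 and 40 counts in SPD and 1, 0 and 2 in CK. A wider search, added after the data were seen, asked for members of at least 10 CPM in 1 library at 5 times the next highest or more. It found 3, all on 5BS and all highest in SPD replicate 3. They were 0.252% of the arm and 0.0874% of all members, against 0.0741% of the whole table. Traes_5BS_673FCF599, which had the highest coefficient of variation among 5BS identifiers averaging 10 CPM or more, had 0, 0 and 605 counts in SPD and 0, 0 and 42 counts in CK. Traes_5BS_AD4B22E19 had 2, 4 and 749 counts in SPD and 0, 0 and 90 counts in CK, and Traes_5BS_99957C738 had 0, 0 and 183 counts in SPD and 4, 1 and 11 counts in CK. CK replicate 3 was the next highest library for all 3 of them. Whether SPD replicate 3 and CK replicate 3 hold RNA of the labelled cultivar alone was not tested, and the absent and exclusive counts carry that limit. None of the 3 passed the filter on low counts, so they entered no test of SPD against CK.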

How the data were processed

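The authors deposited raw counts per gene identifier, whole numbers with a column per library. HISAT2 is named in the submitters' processing notes. Sources used here do not give the counting program, genome build, annotation or strand setting. Titles supplied the groups and replicate numbers. No library looked like a copy of another, since chi-square per degree of freedom was 4.12 to 16.4 between pairs.

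CPM were scaled by library size alone. SPD was compared with CK on the whole table with the quasi-likelihood test of edgeR 4.0.16 (R 4.3.3), after filterByExpr (min.count 10, min.total.count 15) and TMM scaling (factors 0.974 to 1.02), two-sided, with Benjamini-Hochberg adjustment over all identifiers tested and a threshold of 0.05. SEs, 95% intervals and fold changes are on the log2 scale. Spread was computed on log2(CPM + 0.5) after TMM scaling, and principal components on log2 CPM (prior count 2). Arms were compared within libraries with an exact sign-flip permutation test, adjusted over the 3 pairs or arms, and groups with an exact permutation test. Fit and arm measures were tested on simulated data.

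The members, lists and rules were chosen with earlier results of these data known. Named were the 5 most abundant identifiers of each arm, the 2 of lowest unadjusted p in each direction, the most variable of each arm and the most abundant absent or exclusive ones. DESeq2 1.42.0, limma-voom (limma 3.58.1), other scalings and filters, and leaving out libraries served as alternatives. No block was used in the main fit, since the titles gave 2 groups and no other design. Over identifiers that passed the filter, same-numbered libraries did not deviate together (correlations of 0.0157, -0.0583 and -0.0287). Identifiers that failed the filter are not covered, such as the 3 of 5BS with SPD replicate 3 highest and CK replicate 3 next. The 8891 identifiers without an arm prefix were not assigned to any arm.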

Additional observations from a re-analysis of the deposited data

How the results depend on the processing

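Of the arm comparisons, 5BS minus 5AS in share of counts was 0.0328 percentage points without the most abundant identifier of each arm and 0.0118 without the 10 most abundant, and passed the test in neither. With PINA and PINB counted to 5DS, 5DS minus 5BS was 0.423 and 5DS minus 5AS 0.579, the other direction. No other arm measure was run with these genes added. 5DS minus 5AS in detected identifiers was -0.444 at 1 count or more, and in the share of the 5 most abundant it was -0.358, neither past the test. Mean CPM of 5BS minus 5AS was -0.798 without the 10 most abundant, and ran from -0.0170 to 0.257 without 1 library at a time, negative without SPD replicate 3. Against other triplets, the 5AS part was -0.403 without the 10 most abundant of 5DS, 5BS and 5AS, the other triplets left whole. It was -0.720 without groups 1, 4 and 7 (added after seeing the data). The 5DS part was 0.0892 by number of identifiers at 1 CPM or more. The cause of these changes was not tested beyond the identifiers left out. All other arm comparisons kept direction and side of the threshold under every alternative run on all 6 libraries, although several moved by over 1.5 times, with the values given beside those results. With 5 libraries the sign-flip test cannot pass, so values without 1 library carry no test.

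SPD minus CK was called for no arm. Its sign turned in share of counts of 5DS (-0.0022 without the 10 most abundant). In detected share it turned on 5DS and 5BS at 0.5 CPM (-0.281 and -0.560), on 5DS and 5AS at 2 CPM (-0.309 and 0.317) and on 5BS with libraries thinned to the smallest total (-0.364). Without 1 library at a time, share of counts ran from -0.0166 to 0.0289 on 5DS, -0.0073 to 0.0120 on 5BS and -0.0097 to 0.0523 on 5AS, and detected share from -0.0281 to 0.730, -0.126 to 0.672 and -0.412 to 0.301. Members called numbered 0 in every fit run. Members at an unadjusted p under 0.05, counted in every fit after seeing the data, numbered 76 as reported, 126 with no filter and 46 to 150 without 1 library at a time (over 1.5 times away without SPD replicate 2, SPD replicate 3, CK replicate 1 or CK replicate 2). Traes_5DS_F9C6618A5 lay at a log2 fold change of -0.39 to 0.11 without 1 library, positive without SPD replicate 3 or CK replicate 3. With the replicate number as a block, 0 members were called and 58 lay at an unadjusted p under 0.05. Of the members found in 1 library only, 5DS held 2, 5BS 6 and 5AS 3 with 1 CPM in place of 2, and 5BS held 0 at limits of 0.5 and 5 CPM, both added after seeing the data. Members near 1 CPM rest on few counts.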

Other observations

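Over the whole table, 76 identifiers reached at least 10 CPM in 1 library at 5 times the next highest or more, and 75 of them were highest in SPD replicate 3. CK replicate 3 was the next highest library for 60 of the 75, CK replicate 2 for 6, SPD replicate 1 for 4, CK replicate 1 for 3 and SPD replicate 2 for 2. The 3 identifiers of 5BS with this pattern are among the 60. By share of identifiers absent from SPD replicate 3, 5BS ranked 3rd among the 41 prefixes, at 0.336% against a median of 0.081%. That rank rests on 4 identifiers. The members of all 3 arms together stood at 0.117%, against 0.129% of the whole table. The search was chosen after seeing the data.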
